A study of Mus musculus with 8 samples.

Results

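The contacts described here join the left flank of the mouse Sox9 locus (mm9 chr11:109010001-110910000) with the Sox9 domain (chr11:111410001-113020000), leaving out 112490001 to 112520000. They were chosen by position alone: all pairs of 10 kb bins with one bin in each interval. There were 190 left flank bins and 158 Sox9 domain bins, which gave 30020 of the 172578 bin pairs in each map. Every such contact skips the Kcnj2 domain, which lies between the intervals (110910001 to 111380000).

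Sox9 encodes a transcription factor needed to form cartilage and is active in the limb bud. Its regulatory elements are spread over a wide gene desert, which corresponds here to the left part of the Sox9 domain. Chromosomes fold into domains within which contacts are frequent. Domain borders are often marked by the DNA-binding protein CTCF, and sites on both sides of a domain can also meet over long distances, which appears as a stripe or a point of high contact in a map. In the RefSeq gene order (GRCm38) the neighbours left of Kcnj2, a potassium channel gene, are Kcnj16, another channel gene of the same family, and Map2k6, which encodes a kinase that activates p38 MAP kinases. Further left lie the lipid transporter genes Abca5, Abca6, Abca9, Abca8a and Abca8b. Slc39a11, a zinc transporter gene, follows Sox9. Sox9 was placed in the bin starting at 112.64 Mb from general knowledge of mm9, and no mm9 annotation was used to assign genes to the other bins.

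The maps came from capture Hi-C, in which ligated fragments of a chosen region are enriched and each read pair counts as a contact between the places it joins. The tissue was forelimb and hindlimb buds of E12.5 mouse embryos, pooled from several embryos per genotype, and the tissue holds many cell types. All 8 genotypes were homozygous mutants on the G4 ESC background: InvC∆Bor, InvC, InvIntra, BorKnockIn, ∆CTCF, ∆BorC1-4, ∆BorC1-2 and ∆BorC1. By the series description the changes are deletions, insertions and inversions of CTCF sites. The wildtype and another mutant of the series were not analysed here. With a single library for every genotype, nothing could be tested. All intervals are 95% intervals for counting error only, which do not cover differences between animals or library preparations.

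The libraries held 3056502 (InvC∆Bor) to 9045698 (∆BorC1-4) contacts, and 204513 to 541114 of these lay between the left flank and the Sox9 domain. The mean was 6.81 to 18.03 contacts per bin pair, and 0.979% (∆BorC1-4) to 7.11% (InvC∆Bor) of the bin pairs held none. Values were therefore read mainly in blocks of 100 kb by 100 kb, 304 in all, of which the emptiest in any library held 97 contacts. Levels are given as observed over expected: the sum of balanced (KR) values divided by the sum expected from that library's own mean at each distance. A value of 1 is the average of the captured region for that distance, so it is a level relative to the same map, with the area itself included. With an expectation from pairs outside the area, the level of the whole area was 1.20 to 2.02 across the libraries, against 1.10 to 1.55.

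The left flank met the Sox9 domain more often than distance alone gave in all 8 libraries. Observed over expected of the whole area was 1.41 in InvC∆Bor, 1.55 in InvC, 1.10 in InvIntra, 1.24 in BorKnockIn, 1.38 in ∆CTCF, 1.30 in ∆BorC1-4, 1.37 in ∆BorC1-2 and 1.31 in ∆BorC1. InvC was the highest and InvIntra the lowest. The 4 deletion libraries (∆CTCF, ∆BorC1-4, ∆BorC1-2 and ∆BorC1) stayed within 1.30 to 1.38.

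As a share of all contacts the area took 6.69% in InvC∆Bor (exact interval 6.66 to 6.72), 6.62% in InvC (6.60 to 6.65), 4.82% in InvIntra (4.80 to 4.84) and 4.48% in BorKnockIn (4.46 to 4.50). It took 6.10% in ∆CTCF (6.08 to 6.13), while ∆BorC1-4 stood at 5.98% (5.97 to 6.00), ∆BorC1-2 at 5.74% (5.73 to 5.76) and ∆BorC1 at 5.51% (5.49 to 5.53). By share, InvIntra and BorKnockIn were the low libraries and the inversions InvC and InvC∆Bor the high ones. BorKnockIn also had the fewest contacts at 500 kb or more, 22.0% of its total against 24.2% to 26.7% in the others, and of these long contacts the area took 20.4% in BorKnockIn and 18.1% in InvIntra.

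**Figure D1:**
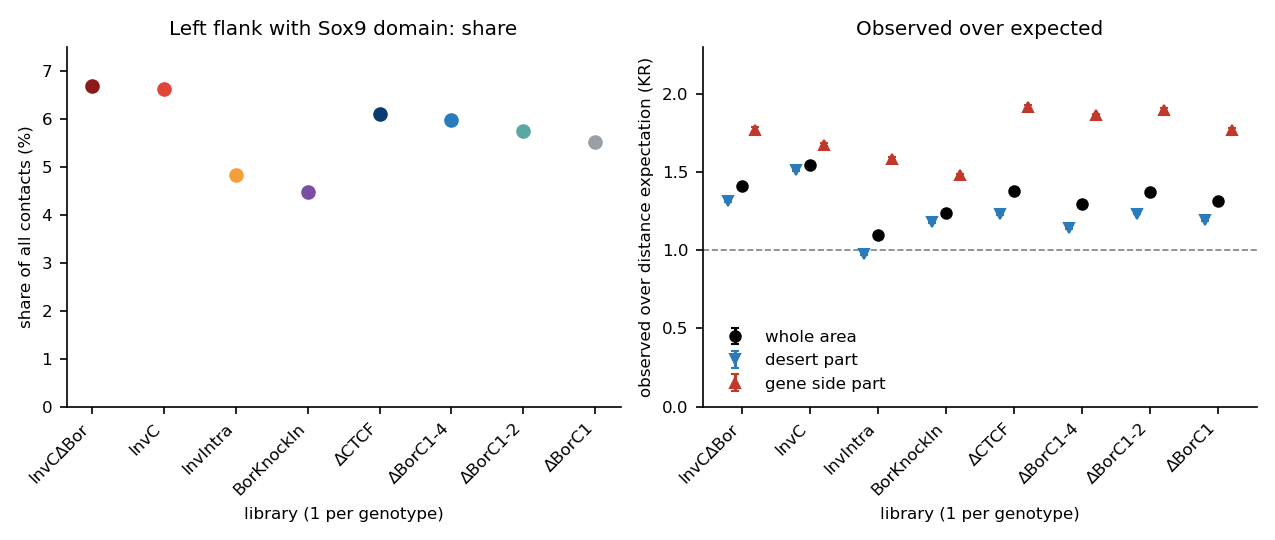
Left panel: share of all contacts (%) that join left flank and Sox9 domain, 1 point per library, with exact 95% counting intervals that are smaller than the points. Right panel: observed over distance expectation of KR values for the whole area (black circles), the desert part (blue) and the gene side part (red), with a dashed line at 1; the desert part of InvIntra at 0.975 is the single value below the line.

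The domain has a desert part, left of the bins left out (111.41 to 112.49 Mb), and a gene side part that holds Sox9 (112.52 to 113.02 Mb). The gene side was the richer in every library. It stood at 1.77 in InvC∆Bor, 1.68 in InvC, 1.59 in InvIntra, 1.48 in BorKnockIn, 1.92 in ∆CTCF, 1.87 in ∆BorC1-4, 1.90 in ∆BorC1-2, with 1.77 in ∆BorC1. The desert stood at 1.31 in InvC∆Bor, 1.51 in InvC, 0.975 in InvIntra, 1.18 in BorKnockIn, 1.23 in ∆CTCF, 1.14 in ∆BorC1-4, 1.23 in ∆BorC1-2, with 1.20 in ∆BorC1. The gene side exceeded the desert least in InvC, by 1.11-fold, and by 1.48-fold to 1.63-fold in InvIntra and the deletion libraries. The highest library exceeded the lowest by 1.55-fold over the desert, which is rearranged in 4 of them, and by 1.30-fold over the gene side. The desert value of InvIntra passed 1 when raw counts were used (1.02), so its side of the average depends on the unit.

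Contacts that leave the left flank can end in the Kcnj2 domain, the Sox9 domain or the sequence to its right. The Sox9 domain took 55.3% of them in InvC∆Bor, 56.0% in InvC, 43.7% in InvIntra, 46.9% in BorKnockIn, 55.5% in ∆CTCF, 51.9% in ∆BorC1-4, 53.7% in ∆BorC1-2, with 51.3% in ∆BorC1. The Kcnj2 domain, which is nearer, took 37.2% in InvIntra and 35.9% in BorKnockIn, the libraries with the lowest Sox9 domain shares, and 26.0% to 30.9% in the others. Observed over expected with the Kcnj2 domain ran from 0.839 in ∆CTCF to 1.23 in InvIntra. It was 0.839 to 1.01 in 6 libraries and 1.13 in BorKnockIn, under their values with the Sox9 domain. Only InvIntra was higher with the Kcnj2 domain (1.23) than with the Sox9 domain (1.10). The sequence right of the Sox9 domain, farther away than either, varied little, from 1.07 in InvC to 1.19 in ∆CTCF.

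The contacts were concentrated in a band of the left flank. In the 10 kb rows the level stepped up at 110.15 Mb in every library, a split chosen after the data were seen. The 76 bins right of this point held 69.6% (InvIntra) to 78.9% (∆CTCF) of the contacts with the Sox9 domain. Their level was 1.83 in InvC∆Bor, 1.94 in InvC, 1.28 in InvIntra, 1.51 in BorKnockIn, 1.88 in ∆CTCF, 1.73 in ∆BorC1-4, 1.80 in ∆BorC1-2, with 1.71 in ∆BorC1. The 114 bins left of it stood at 0.904 in InvC∆Bor, 1.03 in InvC, 0.858 in InvIntra, 0.864 in BorKnockIn, 0.747 in ∆CTCF, 0.761 in ∆BorC1-4, 0.821 in ∆BorC1-2, with 0.797 in ∆BorC1. The far left flank was at or below the distance average in 7 of the 8 libraries, and the deletion libraries had both the lowest far values and the largest step.

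The highest 100 kb row was 110.31 to 110.41 Mb in all 8 libraries. It reached 2.95 in InvC∆Bor, 3.14 in InvC, 2.05 in InvIntra, 2.68 in BorKnockIn, 3.08 in ∆CTCF, 2.87 in ∆BorC1-4, 3.07 in ∆BorC1-2, with 2.85 in ∆BorC1. The next rows by median were its neighbours, 110.41 to 110.51 Mb with a median of 2.16 (1.48 in InvIntra to 2.36 in ∆CTCF) and 110.21 to 110.31 Mb with a median of 2.15 (1.79 in InvIntra to 2.47 in InvC). From this band the level fell again toward the Kcnj2 domain, to a median of 1.31 in the last row (110.81 to 110.91 Mb), where InvIntra stood at 0.885 and ∆CTCF at 1.47. A smaller step lay at 109.51 Mb: the 5 rows left of it had medians of 0.659 to 0.689, and the 5 rows from it to 110.01 Mb had medians of 0.882 to 0.957.

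**Figure D2:**
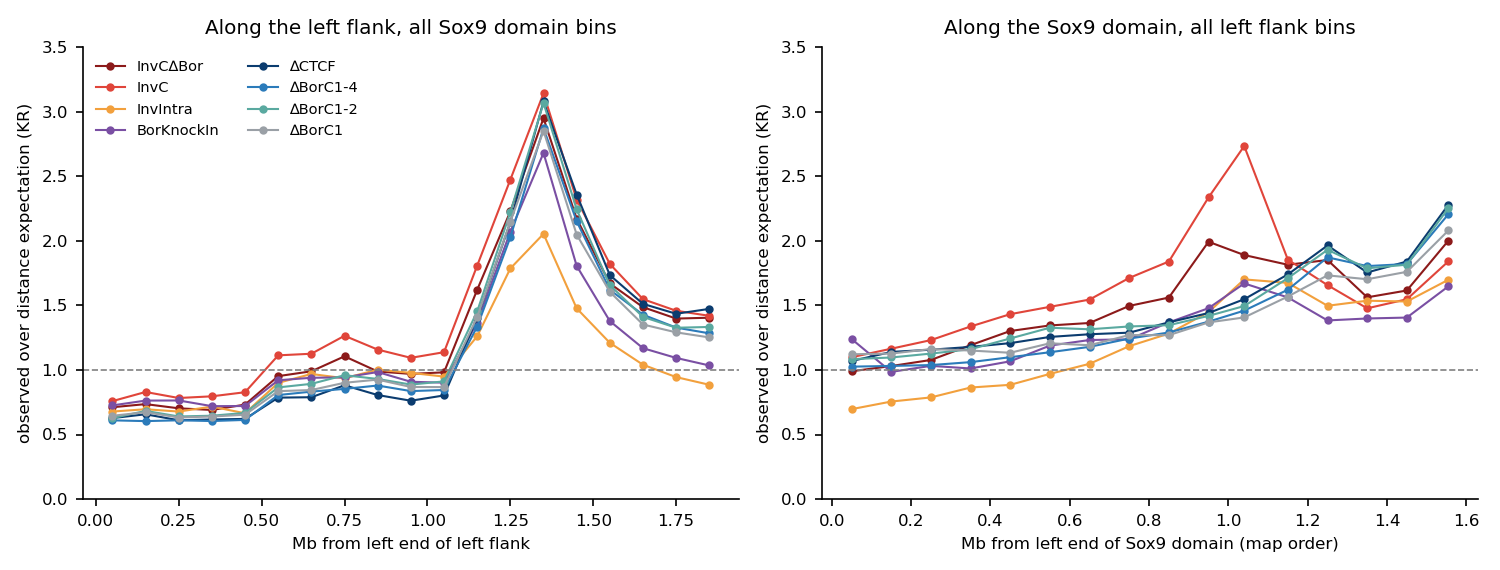
Observed over distance expectation (KR, vertical axis) in 100 kb rows along the left flank (left panel, Mb from its left end) and in 100 kb columns along the Sox9 domain (right panel, Mb from its left end, in map order), 1 line per library. All 8 libraries peak in the same left flank row, between 2.05 and 3.14, and along the Sox9 domain InvC stands out with 2.73 just left of the bins left out.

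Along the Sox9 domain the level was higher toward the right, with dips on the way that differed between libraries. The 3 columns with the highest medians were 112.91 to 113.02 Mb (2.04), 112.61 to 112.71 Mb (1.79), which holds Sox9, and 112.51 to 112.61 Mb (1.69), while the first column (111.41 to 111.51 Mb) had a median of 1.08. The last column, at the right edge of the domain, was the highest of its library in ∆CTCF (2.28), ∆BorC1-4 (2.21), ∆BorC1-2 (2.25) and ∆BorC1 (2.08). In InvC the highest was 112.41 to 112.49 Mb, at 2.73, against 1.84 in the last column. The other 3 libraries had no single highest column within counting error. InvC∆Bor had 2.00 in the last column and 1.99 at 112.31 Mb, InvIntra 1.698 in the last column and 1.701 at 112.41 Mb, and BorKnockIn 1.65 in the last column and 1.67 at 112.41 Mb. The values of that column in the other libraries were 1.89 in InvC∆Bor, 1.55 in ∆CTCF, 1.46 in ∆BorC1-4, 1.49 in ∆BorC1-2 and 1.41 in ∆BorC1. InvC was the highest there, and all 4 rearranged libraries were above the 4 deletion libraries.

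The blocks with the highest median over the 8 libraries all lay in rows 110.21 and 110.31 Mb. The first, 110.31 to 110.41 Mb with 112.61 to 112.71 Mb (the Sox9 column), stood at 3.97 in InvC∆Bor, 2.70 in InvC, 3.14 in InvIntra, 2.68 in BorKnockIn, 4.72 in ∆CTCF, 4.51 in ∆BorC1-4, 4.68 in ∆BorC1-2 and 4.06 in ∆BorC1, on 1645 to 6390 contacts. The deletion libraries and InvC∆Bor were the high ones, and InvC and BorKnockIn the low ones. The same row with 112.91 to 113.02 Mb stood at 3.79 in InvC∆Bor, 2.78 in InvC, 3.18 in InvIntra, 3.40 in BorKnockIn, 4.82 in ∆CTCF, 4.94 in ∆BorC1-4, 4.73 in ∆BorC1-2 and 4.19 in ∆BorC1, so that the 4 deletion libraries were again above the 4 rearranged ones. Row 110.21 Mb with that column had a median of 3.38 (2.86 in InvIntra to 3.87 in ∆BorC1-2).

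The other leading blocks were 110.31 Mb with 112.41 Mb (median 3.26) and with 112.51 Mb (median 3.20). The block with 112.51 Mb hardly varied, from 2.91 in InvC to 3.61 in ∆CTCF. The block with 112.41 Mb varied 2.06-fold, with 3.63 in InvC∆Bor, 5.63 in InvC (interval 5.45 to 5.82, 3545 contacts), 3.36 in InvIntra, 3.66 in BorKnockIn and 2.73 to 3.16 in the deletion libraries. The lowest medians were those of 109.31, 109.41 and 109.01 Mb with the first column, 111.41 to 111.51 Mb, at 0.449, 0.466 and 0.475, on 138 to 526 contacts. These lowest blocks were alike in all libraries, between 0.402 and 0.574.

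**Figure D3:**
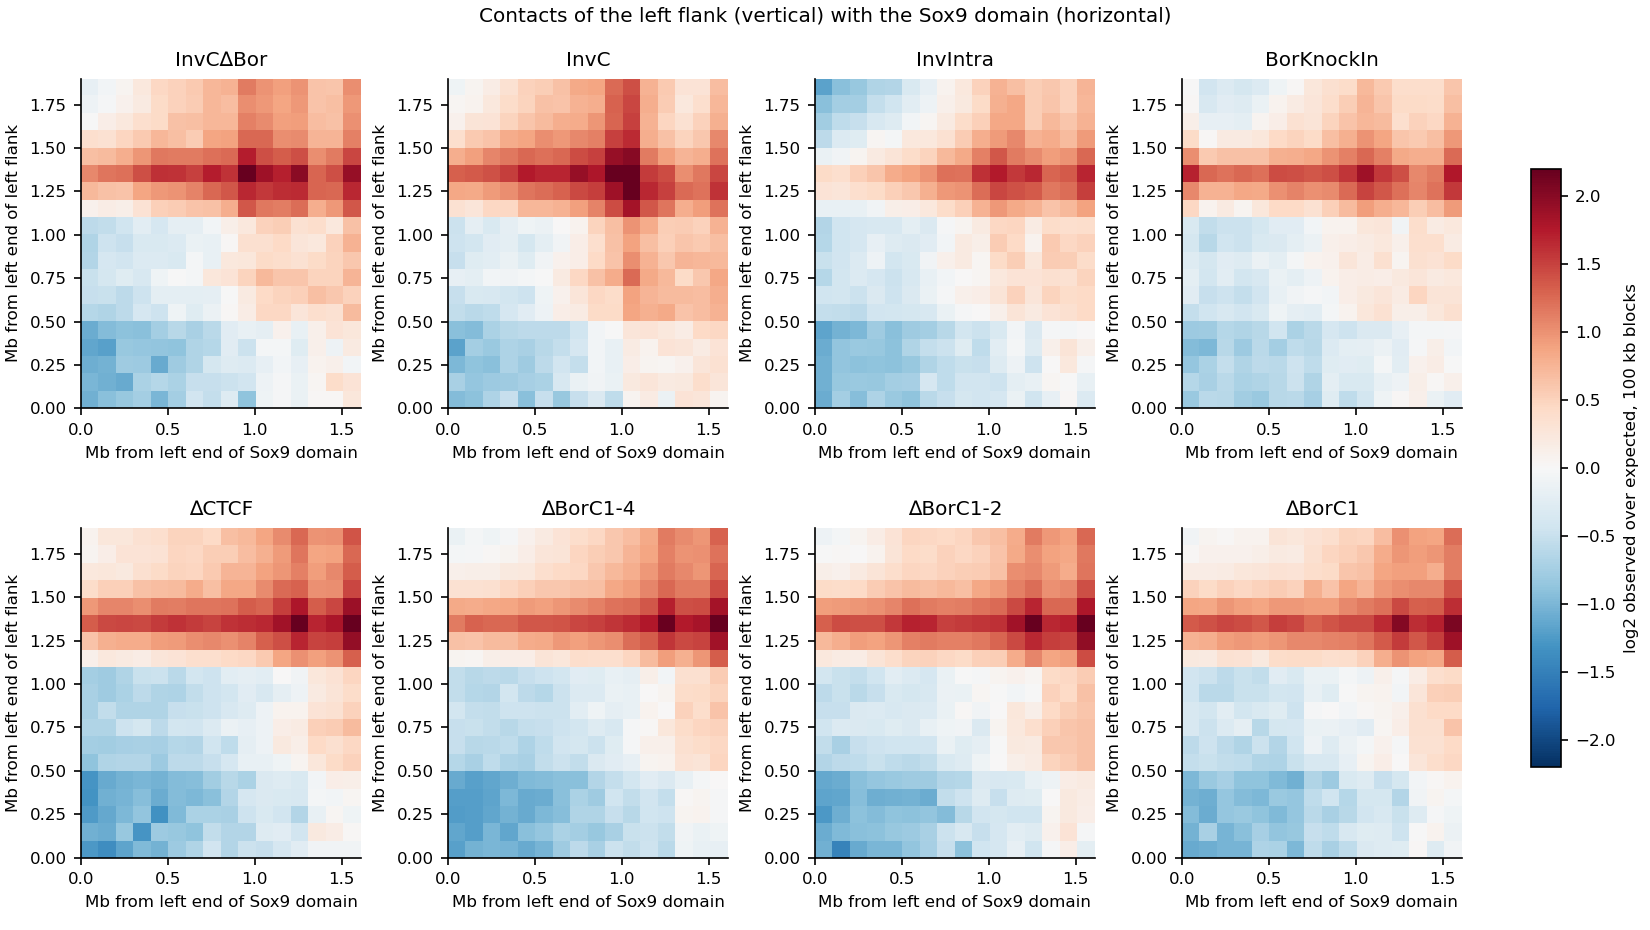
Log2 of observed over expected in 100 kb blocks for the 8 libraries, with the left flank on the vertical axis and the Sox9 domain on the horizontal axis (Mb from the left end of each). A horizontal band about 1.3 Mb from the left end of the left flank is dark in all 8 maps, and its darkest block lies at the right edge in the 4 deletion libraries (4.19 to 4.94) and near 1 Mb in InvC∆Bor (4.75), InvC (5.63), InvIntra (3.36) and BorKnockIn (3.66).

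The window at 110.36 to 110.41 Mb was named before the analysis as an example of these contacts, with earlier results of these data known. Its rank is therefore only a description. This window was the highest of the 38 windows of 50 kb in all 8 libraries. Its level with the Sox9 domain was 3.23 in InvC∆Bor (3.19 to 3.28), 3.42 in InvC (3.38 to 3.46), 2.12 in InvIntra (2.09 to 2.15), 2.89 in BorKnockIn (2.86 to 2.93), 3.53 in ∆CTCF (3.49 to 3.57), while ∆BorC1-4 stood at 3.22 (3.19 to 3.25), ∆BorC1-2 at 3.43 (3.40 to 3.47) and ∆BorC1 at 3.10 (3.06 to 3.14). The median of the 37 other windows was 1.00 in InvC∆Bor, 1.15 in InvC, 0.959 in InvIntra, 0.944 in BorKnockIn and 0.825 to 0.907 in the deletion libraries. The window therefore exceeded its library's median window by 2.21-fold in InvIntra to 4.28-fold in ∆CTCF.

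Of all contacts of this window, 31.2% lay in the Sox9 domain in InvC∆Bor, 30.5% in InvC, 19.97% in InvIntra, 22.7% in BorKnockIn, 30.8% in ∆CTCF, 29.6% in ∆BorC1-4, 29.3% in ∆BorC1-2, with 26.8% in ∆BorC1. The Kcnj2 domain, though nearer, took 13.9% (∆CTCF) to 20.1% (InvIntra). Relative to distance the window was also rich in contacts with the Kcnj2 domain, at 2.28 in ∆CTCF to 2.97 in InvIntra, and less so with the sequence right of the Sox9 domain, at 0.934 in InvC and 1.18 to 1.43 in the others. In each library this was lower than with the Sox9 domain. Only in InvIntra was the window's level higher with the Kcnj2 domain (2.97) than with the Sox9 domain (2.12).

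At 10 kb the contacts of the window were uneven along the Sox9 domain. The highest places described next were picked after their values were seen. In the deletion libraries the leading bins were the last bin of the domain (113.01 Mb) and the Sox9 bin (112.64 Mb). The last bin reached 9.49 in ∆CTCF, 9.14 in ∆BorC1-4, 9.72 in ∆BorC1-2 and 6.49 in ∆BorC1. It reached 7.13 in InvC∆Bor, 4.82 in InvC and 4.90 in InvIntra. In BorKnockIn it was 5.48 at the same map place and 5.06 after the shift of -10 kb given below. The Sox9 bin reached 8.53 in ∆CTCF, 7.69 in ∆BorC1-4, 8.64 in ∆BorC1-2 and 6.56 in ∆BorC1, on 138 to 353 contacts. In the 3 inversions it stood at 7.80 in InvC∆Bor (6.42 to 9.39), 3.76 in InvC (2.95 to 4.72) and 4.81 in InvIntra (4.00 to 5.74).

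Relative to bins 40 to 100 kb away on both sides, the Sox9 bin was 2.56-fold higher in InvC∆Bor, 1.69-fold in InvC, 1.72-fold in InvIntra and 2.00-fold to 2.25-fold in the deletion libraries, so a local maximum was present in all 7. In BorKnockIn the bin coverage right of the edited interval fitted best after a shift of -10 kb. The shifted bin had 3.10 (2.29 to 4.10) on 49 contacts, with 4.57 in the bin to its left. Relative to bins 40 to 100 kb away it gave 1.24 (0.929 to 1.65), an interval that holds 1. The Sox9 bin of BorKnockIn had 0.650 of the deletion libraries' median coverage, and the part of this in its level was not tested.

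In the rearranged libraries other sequence lies at the same map coordinates, mirrored in the 3 inversions and shifted in BorKnockIn. From 111.46 Mb over 95 bins, coverage correlated with the median of the deletion libraries at 0.906 in InvC∆Bor, 0.896 in InvC and 0.850 in InvIntra when read mirrored, against -0.0350, -0.0345 and 0.0642 when read at the same position. BorKnockIn reached 0.906 after a shift of -20 kb and 0.0911 without it. The mirror places the sequence of 111.46 Mb at 112.43 Mb of the map in InvC∆Bor and InvC and at 112.45 Mb in InvIntra. Contacts were therefore also read by sequence, that is, at the map place where each stretch of the desert now lies.

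By sequence, the desert bin at 111.51 Mb was the highest in the 3 inversions and among the highest in BorKnockIn. The window's contact with the sequence of 111.51 to 111.52 Mb was 10.5 in InvC∆Bor (9.39 to 11.7, 335 contacts), 10.6 in InvC (9.62 to 11.6, 433 contacts), 6.30 in InvIntra (5.67 to 6.99, 363 contacts) and 4.66 in BorKnockIn (4.26 to 5.08, 500 contacts). It was 2.79 in ∆CTCF, 2.79 in ∆BorC1-4, 2.95 in ∆BorC1-2 and 2.66 in ∆BorC1, on 171 to 359 contacts. The 4 rearranged libraries were all above the 4 deletion libraries. In the 3 inversions the bin lay at 112.38 to 112.40 Mb of the map, about 2 Mb from the window, against 1.13 Mb in the deletion libraries. Observed over expected already allows for distance, and at 112.38 Mb of the map the deletion libraries' median was 3.44. The bin of 111.51 Mb by sequence was the highest of the window's whole profile in all 3 inversions.

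The same bin stood above its surroundings in the rearranged libraries and not in the others. Relative to bins 40 to 100 kb away it was 2.82-fold higher in InvC∆Bor (2.50 to 3.18), 2.05-fold in InvC (1.85 to 2.27), 2.18-fold in InvIntra (1.94 to 2.44) and 1.60-fold in BorKnockIn (1.45 to 1.76). In the deletion libraries the ratio was 0.897 in ∆CTCF, 1.04 in ∆BorC1-4, 0.991 in ∆BorC1-2 and 0.907 in ∆BorC1. In BorKnockIn the sequence of 111.49 Mb was slightly higher, at 4.91, and that of 112.48 Mb about level, at 4.61. In InvC the sequences of 111.41 Mb (8.53) and 111.50 Mb (8.24) were also high. With the left flank outside the window, an alternative added after the data were seen, the ratio was 1.29 in InvC∆Bor, 1.18 in InvC, 1.01 in InvIntra and 0.882 in BorKnockIn, against 1.00 to 1.03 in the deletion libraries. The labels of ∆BorC1, ∆BorC1-2 and ∆BorC1-4 name C1, whose position the labels do not give. Raw coverage of the bin was 1.36, 1.15, 1.40 and 1.51 times the deletion libraries' median in InvC∆Bor, InvC, InvIntra and BorKnockIn. KR values are balanced for coverage, and the part of coverage in the difference was not tested.

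A weaker place of the same kind was the sequence of 111.76 Mb, which the mirror puts at 112.13 Mb in InvC∆Bor and InvC. The window met it at 5.14 in InvC∆Bor, 5.38 in InvC, 2.80 in InvIntra and 3.33 in BorKnockIn, against 3.18 in ∆CTCF, 2.72 in ∆BorC1-4, 3.48 in ∆BorC1-2 and 3.23 in ∆BorC1. Over its neighbours it was 1.32-fold (BorKnockIn) to 1.59-fold (InvC∆Bor) higher in the rearranged libraries and 0.909-fold to 1.08-fold in the deletion libraries. The sequence of 111.41 Mb, named above for InvC, lies at 112.48 Mb of the map in InvC and InvC∆Bor, the last bin before those left out. It had 8.53 in InvC and 4.08 in InvC∆Bor. BorKnockIn had its highest bin at the same map place, at 5.55, but by the shift other sequence lies there.

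**Figure D4:**
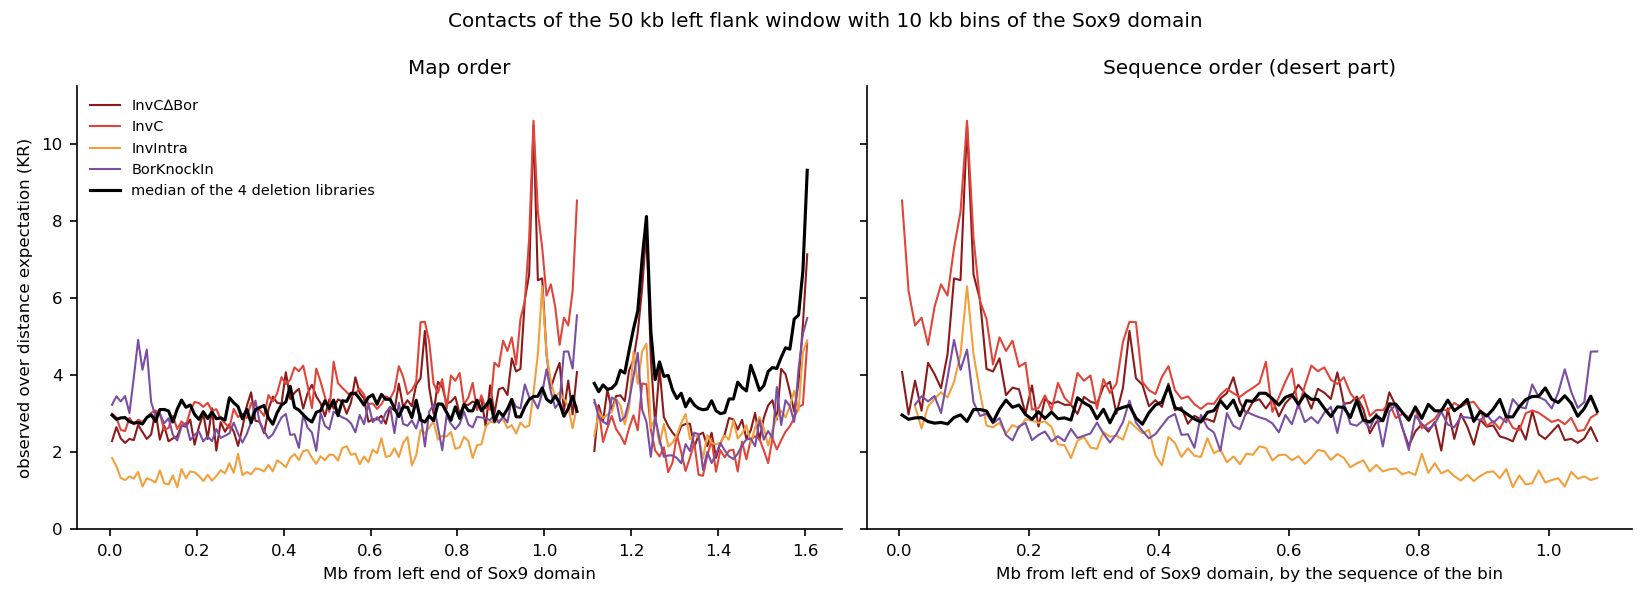
Observed over distance expectation (KR) between the 50 kb left flank window and each 10 kb bin of the Sox9 domain, in map order (left) and with the desert part in sequence order (right), for the 4 rearranged libraries and the median of the 4 deletion libraries (black); the gap in the left panel marks the bins left out. In sequence order the peaks of InvC∆Bor (10.5), InvC (10.6), InvIntra (6.30) and BorKnockIn (4.66 and 4.91) come to lie together about 0.1 Mb from the left end, where the black line is flat at 2.79.

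The strength of this desert place varied along the left flank as the domain as a whole did. With its 2 neighbouring bins it met row 110.31 to 110.41 Mb at 6.43 in InvC∆Bor, 7.38 in InvC, 4.53 in InvIntra, 3.43 in BorKnockIn and 2.37 to 2.65 in the deletion libraries, the highest row in all 8. A second left flank row, 109.71 to 109.81 Mb, was raised above its neighbour at 109.81 Mb in InvC∆Bor (1.78, interval 1.54 to 2.04, and 1.19, interval 1.00 to 1.41) and InvC (2.24, interval 2.00 to 2.50, and 1.51, interval 1.31 to 1.72). In these libraries it was also above the row at 109.61 Mb, with 0.984 (0.809 to 1.18) in InvC∆Bor and 1.39 (1.21 to 1.60) in InvC. BorKnockIn was higher at 109.71 than at 109.81 Mb (0.751, interval 0.649 to 0.865, and 0.552, interval 0.472 to 0.643). Its row at 109.61 Mb, at 0.683 (0.585 to 0.793), overlapped that at 109.71 Mb. In InvIntra and the 4 deletion libraries the intervals of the rows at 109.71 and 109.81 Mb overlapped. In the 6 libraries other than InvC∆Bor and InvC the row at 109.71 Mb stood at 0.569 (∆CTCF) to 1.02 (InvIntra). The most variable of the 304 blocks was that of 109.71 Mb with 112.41 Mb, a column that does not hold the bin of 111.51 Mb in any library. It had 1.65 in InvC∆Bor, 2.37 in InvC, 1.18 in InvIntra, 1.12 in BorKnockIn and 0.838 to 1.04 in the deletion libraries.

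Over whole 100 kb columns the desert profile of the inversions rose along the map, as the deletion libraries' median did. Across the 10 desert columns, the level with all left flank bins correlated with the deletion libraries' median at r of 0.975 in InvC∆Bor, 0.979 in InvC and 0.992 in InvIntra by position, and at -0.920, -0.861 and -0.910 by sequence. These columns share a library and a trend with distance, so r is a description. With such a trend, a mirrored reading turns the sign of r, so these readings are not separate and cannot tell position from sequence. For the 50 kb window alone r was 0.658, 0.621 and 0.652 by position and -0.588, -0.730 and -0.766 by sequence. BorKnockIn, which is shifted and not mirrored, gave 0.804 by position and 0.726 by sequence with all left flank bins, and -0.283 by position and -0.330 by sequence with the window alone. The first 100 kb of desert sequence (111.41 to 111.51 Mb), which lies next to the gene side in the inversions, had 1.97 in InvC∆Bor, 2.76 in InvC and 1.70 in InvIntra, against 1.03 to 1.12 in the deletion libraries. The last of the 10 (112.31 to 112.41 Mb), which lies next to the Kcnj2 domain in the inversions, had 1.03 in InvC∆Bor, 1.15 in InvC and 0.755 in InvIntra, against 1.37 to 1.44 in the deletion libraries. Both contrasts set different map places side by side. Near the map places of these sequences in the inversions, the deletion libraries had 1.41 to 1.55 (112.41 to 112.49 Mb) and 1.03 to 1.14 (111.51 to 111.61 Mb).

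The libraries were then set against each other in 8 pairs whose labels differ by a named change or share one. Several pairs share a library, so they are not independent. Block differences are counted at 1.5-fold with at least 20 contacts in both libraries, which all 304 blocks had. The background is the share of all 1207 blocks of the map over the same distances. As a yardstick of how a pair differs without an edit between the ends, 157 blocks lie wholly in the left flank or wholly right of the Sox9 domain. The left flank is 1.9 Mb wide, so these blocks do not reach the longer distances of the area, up to 4 Mb. The share of all blocks beyond their range was not computed, so counts beyond it are descriptions.

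InvC∆Bor and InvC share an inversion in their labels and differ by ∆Bor. Observed over expected of the area was 1.41 in InvC∆Bor and 1.55 in InvC, a ratio of 0.914 (0.909 to 0.919). The desert gave 0.869 and the gene side 1.06, so the direction differed between the parts. No block was higher and 4 were lower in InvC∆Bor, with 1.91% of all blocks higher and 0.829% lower. The 4 lower blocks were all in the column 112.41 to 112.49 Mb, led by row 110.11 Mb with 2.24 in InvC∆Bor and 3.54 in InvC (ratio 0.633, 0.575 to 0.698), row 110.21 Mb (0.644) and row 110.31 Mb (0.645). The highest ratios were in the Sox9 column, led by row 110.31 Mb with 3.97 in InvC∆Bor and 2.70 in InvC (1.47, 1.37 to 1.57). Unedited blocks ran from 0.810 to 1.45, with a median of 1.01. Below that range were 52 of the 304 blocks, a description, as no share of all blocks was computed for it. By share of all contacts the ratio was 1.01 (1.00 to 1.02), and by share of contacts at least 500 kb apart 0.967.

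InvC∆Bor over InvIntra gave 1.28 (1.28 to 1.29), with 1.41 in InvC∆Bor and 1.10 in InvIntra. The desert gave 1.35 and the gene side 1.12. Of the 304 blocks 45 were higher and 0 lower, with 6.38% of all blocks higher and 5.55% lower. The highest ratios were those of row 110.81 Mb with 111.81 Mb (2.14, with 1.38 in InvC∆Bor and 0.642 in InvIntra) and with 111.41 Mb (2.00), and of row 110.51 Mb with 111.41 Mb (1.94). The lowest was row 109.01 Mb with 112.31 Mb (0.722, 0.567 to 0.920).

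InvC over InvIntra gave the largest difference, 1.41 (1.40 to 1.41), with 1.55 in InvC and 1.10 in InvIntra. The desert gave 1.55 and the gene side 1.06, and 83 blocks were higher and 0 lower, with 10.3% of all blocks higher and 14.7% lower. Of the area blocks 27.3% were thus higher, against 10.3% of all blocks. The higher blocks lay mainly in the desert: 14 of the 19 blocks of column 112.41 Mb and 10 of the 19 of column 112.31 Mb were among them, and 1 of the 95 gene side blocks. Row 110.81 Mb with 111.81 Mb led with 2.21, at 1.42 in InvC and 0.642 in InvIntra. The lowest was row 110.61 Mb with 112.71 Mb, at 1.26 in InvC and 1.64 in InvIntra (0.766). The unedited blocks had a median of 0.933 and a highest value of 1.19. Above that value were 175 area blocks, a description, as no share of all blocks was computed for it.

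InvC∆Bor and ∆BorC1 both have Bor deleted in their labels. They differ in the inversion and also in C1, which is deleted by the label of ∆BorC1 alone, and the 2 changes cannot be told apart. The ratio was 1.08 (1.07 to 1.08), with 1.41 in InvC∆Bor and 1.31 in ∆BorC1. The desert gave 1.10 and the gene side 1.00, and 9 blocks were higher and 0 lower, with 0.994% of all blocks higher and 0.497% lower. Of the 9, 5 lay in column 112.31 Mb and 3 in column 112.41 Mb, the first of which holds the sequence of 111.51 Mb in InvC∆Bor. They were led by row 110.11 Mb with 112.31 Mb at 2.57 in InvC∆Bor and 1.30 in ∆BorC1 (1.98, 1.78 to 2.19), row 109.71 Mb with 112.41 Mb at 1.65 in InvC∆Bor and 0.838 in ∆BorC1 (1.96) and row 110.31 Mb with 112.31 Mb at 4.75 in InvC∆Bor and 2.74 in ∆BorC1 (1.73). Read by sequence over 190 desert blocks, 42 were higher and 2 lower in InvC∆Bor. Read by position, 5 of the same number were higher and 0 lower. The reading by sequence compares blocks at different map places, and the level was higher toward the right of the desert in both libraries. No share of all blocks was computed by sequence, so that count is a description and not a result about the sequences.

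BorKnockIn over ∆BorC1 gave 0.945 (0.940 to 0.950), with 1.24 in BorKnockIn and 1.31 in ∆BorC1. By label they differ in the knock-in and in C1, and ∆Bor is named by the label of ∆BorC1 alone. These changes cannot be told apart. The desert was nearly level at 0.989 and the gene side gave 0.836. No block was higher and 4 were lower, with 4.81% of all blocks higher and 4.06% lower. The lower blocks were 1.32% of the area. Of the 4, 3 lay in the Sox9 column and 1 at the right edge, led by row 110.41 Mb with 112.61 Mb at 1.78 in BorKnockIn and 2.75 in ∆BorC1 (0.649, 0.602 to 0.699). The highest were rows 109.41 to 109.61 Mb with 111.91 Mb (1.40 to 1.49).

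The steps between the deletion libraries were small. ∆CTCF over ∆BorC1-4 gave 1.06 (1.06 to 1.07), with 1.38 in ∆CTCF and 1.30 in ∆BorC1-4. ∆BorC1-4 over ∆BorC1-2 gave 0.945 (0.941 to 0.949), with 1.30 in ∆BorC1-4 and 1.37 in ∆BorC1-2. ∆BorC1-2 over ∆BorC1 gave 1.04 (1.04 to 1.05), with 1.37 in ∆BorC1-2 and 1.31 in ∆BorC1. No area block passed 1.5-fold in either direction in these pairs. Of all blocks, 0% were higher and 0.0829% lower in ∆CTCF, 0% and 0% in ∆BorC1-4, and 0% and 0% in ∆BorC1-2. Area blocks ran from 0.792 to 1.28 in the first pair, from 0.720 to 1.35 in the second and from 0.762 to 1.35 in the third. Unedited blocks of these pairs ran from 0.721 to 1.15, from 0.843 to 1.37 and from 0.771 to 1.16, so most differences were inside the spread of sequence that none of the labels names. In ∆CTCF over ∆BorC1-4 the unedited median was 0.947, below 1, while the area median was 1.04. The direction of ∆BorC1-4 over ∆BorC1-2 depended on the measure, with a ratio of 1.04 by share of all contacts.

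**Figure D5:**
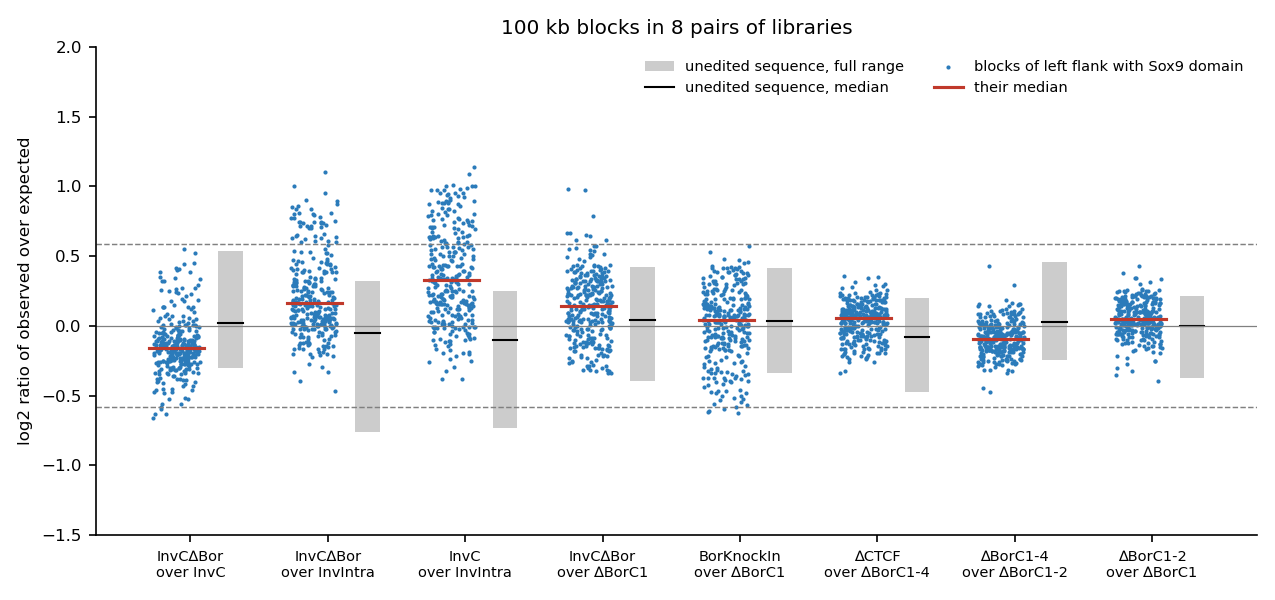
Log2 ratio of observed over expected for the 304 blocks of left flank with Sox9 domain (blue points, red line at their median) in 8 pairs of libraries, beside the full range (grey) and median (black) of 157 blocks in unedited sequence. Dashed lines mark 1.5-fold; InvC over InvIntra has 83 points above the upper line, and the 3 pairs of deletion libraries have none beyond either line.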

How the data were processed

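Capture Hi-C maps of 8 genotypes, 1 library each, were analysed. Per the submitters' processing notes, Bowtie2 2.2.6 and Juicer were used with mm9; how reads were filtered or duplicates removed is not given in the sources used here, nor is a version for Juicer. The authors deposited, for each map at 10 kb, raw counts (read pairs joining a pair of bins). The deposited KR values are a balanced signal that the authors made from those counts; per the deposited files they are not scaled between libraries. Depth was 3056502 to 9045698 contacts.

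The interval limits were fixed by position, but they, the 50 kb window and the lists were chosen with earlier results of these data known. The named blocks were the 5 highest and 3 lowest by median, the 3 highest rows and columns, and in each pair the 3 highest and 3 lowest ratios. Bins under 0.05 of a library's median coverage were left out of observed over expected, and none of them lay in the area. Shares have exact Clopper-Pearson 95% intervals, levels the Poisson interval of their contacts and ratios a log-normal interval, all for counting error only and taking read pairs as independent. The mirror and shift were those with the highest correlation of bin coverage with the deletion libraries' median. Calculations were tested on simulated data and ran with scipy 1.17.1, pandas 2.3.3 and numpy 2.4.6 under Python 3.11.15, and matplotlib 3.10.9 drew the figures. Alternatives were raw counts, other expectations, denominators, block and window sizes, thinned depth and bins left out.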

Additional observations from a re-analysis of the deposited data

How the results depend on the processing

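No paired analysis was possible because each genotype had 1 library. The 8 ratios of observed over expected kept their direction under raw counts, an expectation from pairs outside the area and with thinly covered bins left out. In the order InvC∆Bor over InvC, InvC∆Bor over InvIntra, InvC over InvIntra, InvC∆Bor over ∆BorC1, BorKnockIn over ∆BorC1, ∆CTCF over ∆BorC1-4, ∆BorC1-4 over ∆BorC1-2 and ∆BorC1-2 over ∆BorC1, they were 0.925, 1.30, 1.40, 1.07, 0.950, 1.07, 0.951 and 1.03 with raw counts. With the outside expectation they were 0.861, 1.44, 1.68, 1.15, 0.917, 1.09, 0.918 and 1.08. That expectation leaves the area out of its own mean, which moves ratios away from 1. With bins under 0.5 of the median coverage left out, InvC∆Bor over InvC gave 0.908 and the others stayed within their counting intervals.

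Ratios of shares turned for InvC∆Bor over InvC (0.984 with KR totals, 0.967 with contacts at least 500 kb apart), for ∆CTCF over ∆BorC1-4 (0.9996 with KR totals) and for ∆BorC1-4 over ∆BorC1-2 (0.966 with contacts at least 500 kb apart). These 3 pairs have no settled direction by share. The desert level of InvIntra passed 1 with raw counts (1.02) and with the outside expectation (1.06). The cause was not tested.

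Counts of higher blocks at 2-fold were 2 for InvC∆Bor over InvIntra, 6 for InvC over InvIntra and 0 for InvC∆Bor over ∆BorC1, and in 200 kb blocks, of which there are fewer, 14, 22 and 1. With raw counts InvC∆Bor over ∆BorC1 had 5 and BorKnockIn over ∆BorC1 had 2. Lower blocks were 0 at 2-fold and 0 in 200 kb blocks both for InvC∆Bor over InvC and for BorKnockIn over ∆BorC1. At least 50 contacts in place of 20 changed no count.

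The correlation by position minus that by sequence, readings that are not separate, was 1.89, 1.84 and 1.90 in InvC∆Bor, InvC and InvIntra. It was 1.59, 1.51 and 1.67 with raw counts, and 1.82 in InvC∆Bor with 50 kb blocks. The window, named with earlier results of these data known, was the highest of its 38 in all 8 libraries under each of the 4 other units or expectations tried. These settings use the same maps, so the rank remains a description. Alternatives for the desert place were chosen after seeing the data: over rows outside the window its ratio was 1.29 in InvC∆Bor, 1.18 in InvC and 1.01 in InvIntra, against 2.82, 2.05 and 2.18 over the window, and in BorKnockIn it fell below 1, to 0.882, against 1.60. Depth limits single 10 kb bins, such as the Sox9 bin of BorKnockIn with 49 contacts.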
